A study of Mus musculus with 6 samples.

Results

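The genes described are 10 protein genes encoded by mitochondrial DNA, chosen by symbol from the deposited table of 21959 genes: mt-Nd1, mt-Nd2, mt-Nd4, mt-Nd5, mt-Nd6, mt-Cytb, mt-Co1, mt-Co2, mt-Co3 and mt-Atp6. They are 10 of the 13 rows of that table on the mitochondrial chromosome, and all 10 passed the expression filter that kept 14875 genes. The libraries were made from full-thickness dorsal skin of wild-type male C57BL/6 mice, shaved in telogen, the resting phase of the hair cycle, at 7 weeks of age. Of these mice, 3 received vehicle (30% dipropylene glycol in distilled water) and 3 received 3% rebamipide, a drug for gastric ulcer, on the shaved skin daily for 7 days. No allele or transgene is named for either group. The comparison asks how transcripts of mitochondrial DNA differed between rebamipide-treated and vehicle-treated skin.

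Mitochondrial DNA encodes a small set of membrane subunits of the respiratory chain and of ATP synthase, while all other subunits are encoded in the nucleus and imported. Both of its strands are transcribed as long precursors, which are cut into mRNAs, tRNAs and rRNAs, so that neighbouring genes leave the same precursor but can differ in RNA stability. Complex I oxidises NADH, complex III passes electrons from ubiquinol to cytochrome c, complex IV reduces oxygen, and complex V makes ATP from the proton gradient. Tissues that burn much fuel, such as brown fat and muscle, are rich in mitochondria.

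Fragments of mitochondrial DNA have also been copied into the nuclear genome, and reads from a gene cannot be told apart from reads of a copy with the same letters. Each gene was therefore compared with all nuclear transcripts of the GENCODE vM21 annotation (build GRCm38), in which the mitochondrial genes have the same positions as in the deposited table. Of all stretches of 100 bases within a gene, 99.5% of those of mt-Co2, 99.5% of those of mt-Atp6 and 99.9% of those of mt-Co3 were found unchanged in a nuclear transcript. For mt-Nd4 the share was 60.8% and for mt-Co1 30.8%. It was 3.19% for mt-Nd2 and 0% for mt-Nd1, mt-Nd5, mt-Nd6 and mt-Cytb. This division was made after the levels of the genes had been seen. Below, a gene with little or no nuclear copy is one with little or none in these annotated transcripts. Nuclear sequence outside them was not compared, so such a gene may still have a copy there. None of the 6 nuclear copies listed for this report (Gm10925, Gm28437, Gm28438, Gm28439, Gm28661 and Gm29216) has a row in the deposited table. Other copies found by the comparison, such as Gm13340 and Gm13339, are not in that list, and nothing is stated here about their rows. How reads with several matches were counted is not given in the sources used here.

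The following stretches of 80 bases show what a read from these genes would meet. The first 3 are the same, letter for letter, in the gene and in a copy on the minus strand of chromosome 1 of GRCm38. The copies are Gm28661 (chr1:24614885-24615565) for mt-Co2, Gm10925 (chr1:24613974-24614651) for mt-Atp6 and Gm28437 (chr1:24613189-24613971) for mt-Co3. The last 2 lines show mt-Co1 and its longest compared copy, Gm13340, on the minus strand of chromosome 2 (chr2:22588103-22589647), with the bases that differ in capitals.
mt-Co2 and Gm28661 (bases 301 to 380 of the gene, MT 7313 to 7392): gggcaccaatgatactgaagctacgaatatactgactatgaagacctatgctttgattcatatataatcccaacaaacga
mt-Atp6 and Gm10925 (bases 300 to 379, MT 8226 to 8305): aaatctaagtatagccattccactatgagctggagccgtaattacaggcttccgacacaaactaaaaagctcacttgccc
mt-Co3 and Gm28437 (bases 352 to 431, MT 8958 to 9037): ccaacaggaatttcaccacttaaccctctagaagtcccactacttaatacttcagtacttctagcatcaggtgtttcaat
mt-Co1 (bases 455 to 534, MT 5782 to 5861): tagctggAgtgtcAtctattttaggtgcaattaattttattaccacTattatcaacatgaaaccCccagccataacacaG
Gm13340 (same bases): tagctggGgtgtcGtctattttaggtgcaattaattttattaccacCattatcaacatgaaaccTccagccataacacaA
The copies Gm28661, Gm10925 and Gm28437 showed 0 differences from their genes over 681, 678 and 783 bases. Gm28439 showed 0 differences from the first 876 of 1378 bases of mt-Nd4. Gm13340 differed from mt-Co1 at 37 of 1545 bases, among them A462G, A468G, T501C, C519T and G534A in the stretch shown, counted from 1 at the first base of the gene with the base of mt-Co1 first. Gm29216, a shorter copy of mt-Co1 on chromosome 1, differed from it at 6 of 492 bases. Gm13339 differed from mt-Nd2 at 17 of 510 bases compared.

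The libraries held 38676018 to 39915276 counts in the vehicle group and 32709801 to 34706852 in the rebamipide group. Marker genes of skin cell types were summed in each library. Summed markers of basal keratinocytes were at 2454 to 3979 normalized CPM (counts scaled to library size after TMM normalization) with vehicle and at 1141, 707 and 131 with rebamipide. Suprabasal markers were at 3610 to 6165 against 1617, 973 and 5.38. The median log2 fold changes of these lists were -2.53 and -2.29, and edgeR called 0 of 6 genes in either list, Krt5 included (adjusted p = 0.316, edgeR). At the adjusted threshold, DESeq2 called 1 basal and 0 suprabasal genes lower and limma-voom called 0 and 0. At an unadjusted p under 0.05, the basal and suprabasal genes lower were 1 and 0 with edgeR, 2 and 1 with DESeq2, and 3 and 1 with limma-voom. In rebamipide replicate 3, Krt5, a keratin of basal keratinocytes, was at 0.0525 FPKM, and Krt14, its partner keratin, had 0 counts, which allows up to 0.0864 CPM before TMM scaling. This library therefore lacked the defining markers of the epidermis of its labelled tissue, and the main results below are also given without it. Summed brown adipocyte markers (6 of 8 called higher by edgeR, where 14.1% of all genes tested were) were at 214 to 384 CPM with vehicle and at 5040 to 12960 CPM with rebamipide, with Ucp1, the uncoupling protein of brown fat, at 0 counts in each vehicle library. Elovl3, a fatty acid elongase of the same list named after its values had been seen, had a log2 fold change of -1.45 (SE 0.42, adjusted p = 0.0575, edgeR), and DESeq2 called it lower (adjusted p = 0.0119). Adipocyte markers (9 of 12 called higher) were at 2312 to 6362 against 15626 to 30212. Endothelial markers (4 of 6 called higher) were at 221 to 504 against 1055 to 1556, and red blood cell markers (3 of 5) at 42.4 to 199.9 against 345 to 809. Fast muscle markers (0 of 9 called by edgeR, DESeq2 or limma-voom, and 0 at an unadjusted p under 0.05 by edgeR) ran from 5446 to 26757 with vehicle and were at 34441, 7079 and 285 with rebamipide, while slow and cardiac muscle markers (4 of 6 called higher by edgeR, 5 by DESeq2 and 0 by limma-voom, which had 1 at an unadjusted p under 0.05) ran from 2.07 to 13.5 and from 7.02 to 290.1. Dermal fibroblast markers (12002 to 17735 against 1850 to 15112) and leukocyte markers (503 to 1303 against 324 to 1071) overlapped between the groups. In these lists edgeR and limma-voom called 0 of 6 genes each and DESeq2 called 2 fibroblast genes and 1 leukocyte gene lower, as many as edgeR had lower at an unadjusted p under 0.05. The part of these cell types in the results below was not tested, and in bulk tissue more cells of a type and more RNA per cell cannot be told apart.

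The 10 genes together took 2.59%, 4.28% and 5.36% of all counts in the vehicle libraries and 13.3%, 19.4% and 21.9% in the rebamipide libraries. Every rebamipide library lay above every vehicle library, and the group means were 4.08% ± 1.40 and 18.2% ± 4.45 (SD, n = 3), a difference of 14.1 percentage points. Permuting the libraries between groups (exact permutation test, two-sided) gave p = 0.1, below which 3 against 3 libraries cannot go. The 95% Wilson interval of each of these shares, which covers counting error only, was at most 0.0275 percentage points wide. Without rebamipide replicate 3 the difference was 12.3 percentage points. The 5 genes with little or no nuclear copy took 0.931%, 1.57% and 2.00% with vehicle and 4.35%, 7.25% and 7.66% with rebamipide, so the groups did not overlap among these genes either.

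All 10 genes were higher in rebamipide-treated skin at an adjusted p-value under 0.05 (edgeR quasi-likelihood test, Benjamini-Hochberg over 14875 genes), and 0 were lower. Of all genes tested, 14.1% were called higher and 6.51% were called lower. The log2 fold changes ran from 2.21 to 4.42 with a median of 2.81, beside a median of -0.17 over all genes tested, and the smallest of them exceeded those of 95.4% of the genes. TMM factors ran from 1.21 to 1.28 with vehicle and from 0.746 to 0.929 with rebamipide, and scaled by total counts alone the log2 fold changes ran from 1.53 to 3.74, beside a median of -0.78 over all genes. None of the 10 genes overlapped between groups in normalized CPM, while 24.5% of all genes tested did not overlap with rebamipide higher. Vehicle replicate 1 was the lowest vehicle library for all 10 genes and rebamipide replicate 1 the lowest rebamipide library for all 10, and these libraries also held the lowest summed adipocyte, brown adipocyte, endothelial and red blood cell markers of their groups. Of the basal and suprabasal keratinocyte, fast muscle, fibroblast and leukocyte markers, vehicle replicate 1 held the lowest sums of its group and rebamipide replicate 1 the highest.

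**Figure D1:**
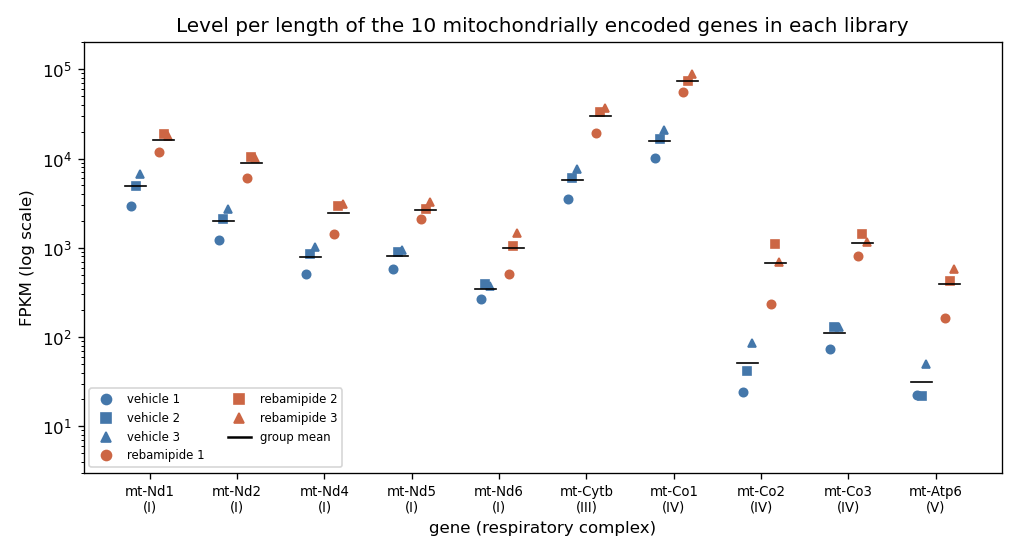
FPKM (log axis) of the 10 genes in each of the 6 libraries, with vehicle in blue, rebamipide in orange and the group mean as a line. All rebamipide libraries lie above all vehicle libraries for each gene, mt-Co1 is the highest gene in each library, and mt-Co2, mt-Co3 and mt-Atp6 are the lowest genes of the vehicle libraries.

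Among the complex I genes, which encode proton-pumping membrane subunits of NADH dehydrogenase, mt-Nd1 (ENSMUSG00000064341, MT, 2751 to 3707, plus strand) was the most abundant. It was counted 110909, 187516 and 249131 times with vehicle and 366792, 618807 and 592721 times with rebamipide. Normalized CPM rose from 3785 ± 1553 to 19605 ± 6561 (log2 fold change 2.37, SE 0.55, adjusted p = 0.0321, edgeR). The lowest rebamipide library was 2.27 times the highest vehicle library.

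mt-Nd2 (MT, 3914 to 4951, plus strand) was counted 50064, 87606 and 107955 times with vehicle and 206166, 369288 and 363375 times with rebamipide, with no overlap. It rose from 1697 ± 657 to 11683 ± 4246 CPM (log2 fold change 2.78, SE 0.53, adjusted p = 0.0202, edgeR). mt-Nd4 (MT, 10167 to 11544, plus strand) had 27560, 46838 and 54325 counts against 64875, 137815 and 147496. It rose from 888 ± 309.6 to 4379 ± 1946 CPM (log2 fold change 2.30, SE 0.52, adjusted p = 0.0305, edgeR), and rebamipide replicate 1 was only 1.84 times the highest vehicle library.

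mt-Nd5 (MT, 11742 to 13565, plus strand) had 41104, 65922 and 67264 counts with vehicle and 123812, 170706 and 204018 with rebamipide. Its CPM rose from 1200.1 ± 330.0 to 6172 ± 1901 (log2 fold change 2.36, SE 0.43, adjusted p = 0.0176, edgeR). mt-Nd6 (MT, 13552 to 14070) is the one gene of the 10 on the minus strand, and its end overlaps that of mt-Nd5. It had 5412, 8174 and 7524 counts against 8644, 18543 and 26208, the narrowest gap between groups, with the lowest rebamipide library at 1.71 times the highest vehicle library. It rose from 145 ± 31.9 to 669 ± 361 CPM (log2 fold change 2.21, SE 0.50, adjusted p = 0.0299, edgeR). The library preparation described does not mark the strand, so reads of mt-Nd6 cannot be told apart from reads of the opposite strand at the same place.

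mt-Cytb (MT, 14145 to 15288, plus strand) encodes cytochrome b, the subunit of complex III with the quinone sites. It had 156465, 275777 and 340143 counts with vehicle and 716152, 1316963 and 1471727 with rebamipide. Its CPM rose from 5336 ± 2082 to 43691 ± 17582 (log2 fold change 3.03, SE 0.64, adjusted p = 0.0259, edgeR), the largest change among the 5 of these 10 genes with little or no nuclear copy.

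The complex IV genes encode the catalytic core of cytochrome c oxidase. mt-Co1 (MT, 5328 to 6872, plus strand), the subunit that binds oxygen, was the most counted gene of the whole table in every library. It had 616807, 1032014 and 1239927 counts with vehicle and 2826220, 3960544 and 4744947 with rebamipide, which was 1.58%, 2.59% and 3.21% of all counts against 8.64%, 11.5% and 13.7%. Its CPM rose from 19941 ± 7133 to 142832 ± 45123 (log2 fold change 2.84, SE 0.72, adjusted p = 0.0403, edgeR).

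mt-Co2 (MT, 7013 to 7696, plus strand), which takes up electrons from cytochrome c, had only 643, 1123 and 2292 counts with vehicle and 5297, 25731 and 16523 with rebamipide. It rose from 28.2 ± 18.7 to 603 ± 415 CPM (log2 fold change 4.42, SE 0.84, adjusted p = 0.0199, edgeR), and the rebamipide libraries spread over 5.75-fold. mt-Co3 (MT, 8607 to 9390, plus strand), the third core subunit, had 2264, 4089 and 3926 counts against 20520, 38306 and 31178. It rose from 70.8 ± 22.0 to 1119 ± 413 CPM (log2 fold change 3.98, SE 0.45, adjusted p = 0.00939, edgeR), with the widest gap of the 10 genes: its lowest rebamipide library was 8.05 times its highest vehicle library.

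mt-Atp6 (MT, 7927 to 8607, plus strand) encodes the complex V subunit that forms the proton path beside the rotating ring. It had 592, 590 and 1308 counts with vehicle and 3617, 9939 and 13775 with rebamipide. It rose from 17.3 ± 9.27 to 344 ± 207 CPM (log2 fold change 4.32, SE 0.70, adjusted p = 0.0135, edgeR).

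The 3 genes matched over nearly their whole length by nuclear copies thus had the 3 largest fold changes, 3.98 to 4.42 on the log2 scale, and the other 7 had 2.21 to 3.03. Per length the same 3 genes were the lowest with vehicle, at 31.2 ± 15.99 FPKM for mt-Atp6, 50.6 ± 32.4 for mt-Co2 and 111 ± 32.5 for mt-Co3, while the other 7 ran from 345 ± 68.8 FPKM for mt-Nd6 to 15899 ± 5318 for mt-Co1. The log2 ratio of the summed FPKM of these 3 genes over the 5 with little or no copy was -6.15, -6.21 and -6.12 with vehicle and -5.04, -4.50 and -4.84 with rebamipide. It was nearly the same in the 3 vehicle libraries (SD 0.0495) and 1.37 higher on average with rebamipide (exact permutation test, p = 0.1). Without rebamipide replicate 3 it was 1.39 higher, again without overlap. The single genes varied more than this ratio of sums. With vehicle, the SD of the log2 ratio to mt-Nd5 in normalized CPM was 0.60 for mt-Co2, 0.55 for mt-Atp6 and 0.08 for mt-Co3. mt-Nd4, matched over 60.8%, did not follow them, with a log2 ratio to mt-Nd5 in FPKM from -0.172 to 0.0963 with vehicle and from -0.528 to 0.0957 with rebamipide. The part of the nuclear copies in these levels and fold changes was not tested.

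**Figure D2:**
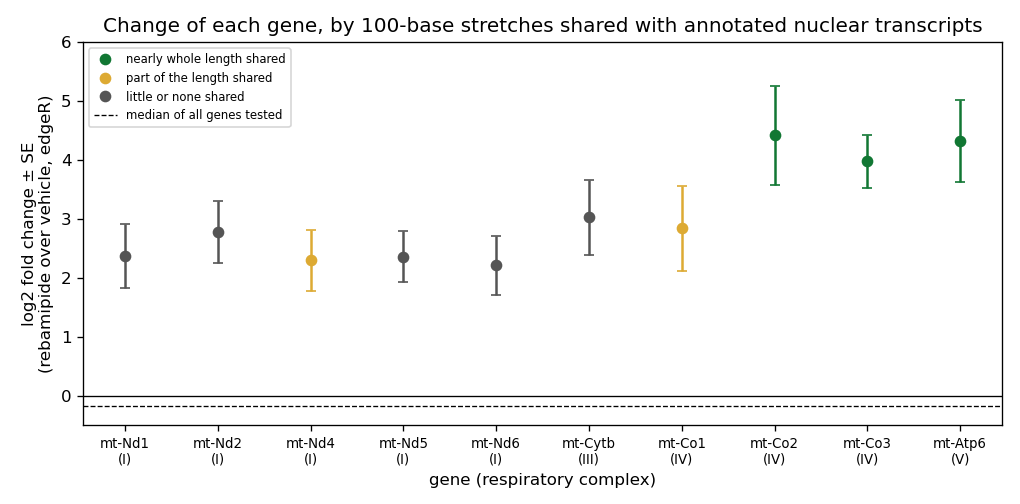
Log2 fold change of each gene, rebamipide over vehicle, with its SE from edgeR, coloured by how much of its length is matched by nuclear transcripts in stretches of 100 bases. The 3 genes in green lie at 3.98 to 4.42, the other 7 at 2.21 to 3.03, and the dashed line marks the median of all genes tested at -0.17.

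The other rows on the mitochondrial chromosome were low. mt-Nd3 and mt-Nd4l, complex I subunits, had 97.6% and 98.5% of their stretches of 100 bases unchanged in a nuclear transcript. mt-Nd3 had 524, 549 and 695 counts with vehicle and 1751, 3991 and 10754 with rebamipide (log2 fold change 4.09, adjusted p = 0.0178, edgeR). mt-Nd4l had 49, 50 and 84 counts against 130, 581 and 351 (log2 fold change 3.41, adjusted p = 0.0224, edgeR). mt-Atp8, a short complex V subunit whose gene overlaps mt-Atp6, had 6, 12 and 21 counts against 40, 183 and 199 (log2 fold change 4.29, adjusted p = 0.0238, edgeR). No annotated nuclear transcript held a stretch of 50 bases of mt-Atp8 unchanged. Its last bases, which lie within mt-Atp6, are also in Gm10925, and the nuclear sequence between the annotated copies of mt-Co2 and mt-Atp6 was not compared.

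Leaving out a single library changed many of these edgeR calls. Without vehicle replicate 2 edgeR called 0 of the 10 genes (adjusted p from 0.0747 to 0.206, with 9 genes at an unadjusted p under 0.05). Without rebamipide replicate 2 it also called 0 (adjusted p from 0.0573 to 0.183, 10 genes at an unadjusted p under 0.05). It called 3 genes without vehicle replicate 1 (mt-Co3, mt-Atp6 and mt-Nd5) and 7 without vehicle replicate 3, where mt-Co1, mt-Nd4 and mt-Nd6 were lost. Without rebamipide replicate 1 it called 10. Without rebamipide replicate 3, the library that lacked epidermal markers, it called 6 (mt-Co2, mt-Co3, mt-Cytb, mt-Atp6, mt-Nd2 and mt-Nd5), and the fold changes ran from 1.80 to 4.39 on the log2 scale. DESeq2, which called 16.2% of all genes higher, called all 10 genes with all libraries and without each library in turn, where it called 11.9% to 22.1% of all genes higher. limma-voom called 10 with all libraries, where it called 14.4% of all genes higher, and 9 (11.7% of all genes) and 10 (13.5%) without vehicle replicates 1 and 3, and 10 (18.1%) and 7 (5.94%) without rebamipide replicates 1 and 3. Without vehicle replicate 2 it called 1 of the 10 genes (adjusted p from 0.049 to 0.0902) and 1.40% of all genes higher. Without rebamipide replicate 2 it called 1 (0.0476 to 0.116) and 1.67% of all genes. edgeR itself called 0 of 14964 genes higher (0.00%) without vehicle replicate 2 and 1 of 15335 (0.00652%) without rebamipide replicate 2. edgeR called 10% (1507 of 15055) and 11.4% of all genes higher without vehicle replicates 1 and 3, and 18.3% and 6.60% without rebamipide replicates 1 and 3. With limma on log2(FPKM + 1), 3 of the 10 genes and 7.54% of all genes were called higher, and without a variance trend, a choice made after seeing the data, 9 and 7.92%.

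Shares within the 10 genes do not depend on how the libraries are scaled. mt-Co1 held 59.8% to 61.0% of the counts of the 10 genes with vehicle and 59.4% to 65.1% with rebamipide, and its groups overlapped. mt-Cytb held 15.5%, 16.1% and 16.4% with vehicle and 16.5%, 19.8% and 19.3% with rebamipide, each rebamipide library being higher. mt-Nd1 held 10.96%, 10.97% and 12.01% against 8.45%, 9.28% and 7.79%, each rebamipide library being lower. The other complex I genes apart from mt-Nd2 were also lower without overlap. mt-Nd4 held 2.69% ± 0.0652 against 1.83% ± 0.301, mt-Nd5 3.72% ± 0.426 against 2.70% ± 0.146 and mt-Nd6 0.459% ± 0.0877 against 0.274% ± 0.0727 (SD, n = 3). The share of mt-Nd2 overlapped between groups at 5.09% ± 0.132 and 5.02% ± 0.450. mt-Co2, mt-Co3 and mt-Atp6 together held 0.346%, 0.339% and 0.363% with vehicle and 0.678%, 1.11% and 0.808% with rebamipide. For the 8 genes without overlap the exact permutation test gave p = 0.1 without adjustment, its smallest value. For mt-Co1 and mt-Nd2 it gave 0.4 and 0.8. The nearest vehicle and rebamipide libraries were at 16.4% and 16.5% for mt-Cytb and at 0.363% and 0.344% for mt-Nd6. How many genes of the table would separate the groups by such a share was not counted. Of all pairs of tested genes, 49.1% had a ratio without overlap.

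**Figure D3:**
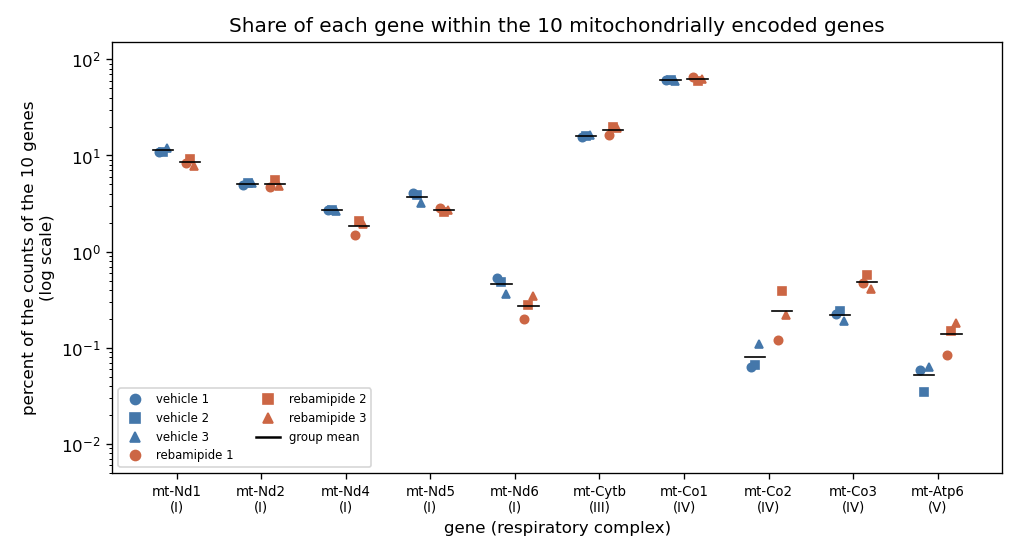
Percent of the counts of the 10 genes held by each gene (log axis) in the 6 libraries, with vehicle in blue, rebamipide in orange and the group mean as a line. mt-Co1 stays near 60% with overlapping groups, mt-Cytb and the 3 genes with nearly whole nuclear copies lie higher with rebamipide, and mt-Nd1, mt-Nd4, mt-Nd5 and mt-Nd6 lie lower.

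Of the 45 pairs of the 10 genes, the log2 ratio of normalized CPM did not overlap between groups in 33, where 49.1% of all pairs of tested genes did not overlap. All 21 pairs of mt-Co2, mt-Co3 or mt-Atp6 with one of the other 7 genes were without overlap, against 12 of the 21 pairs among those 7. The 3 pairs among mt-Co2, mt-Co3 and mt-Atp6 overlapped. Among the 5 genes with little or no nuclear copy, 6 of 10 pairs did not overlap, which is near the share of all pairs. The log2 ratio of mt-Cytb to mt-Nd1 was 0.50, 0.56 and 0.45 with vehicle and 0.97, 1.09 and 1.31 with rebamipide. That of mt-Cytb to mt-Nd2 was 1.64, 1.65 and 1.66 against 1.80, 1.83 and 2.02. That of mt-Nd1 to mt-Nd2, neighbours on the same strand, was 1.15, 1.10 and 1.21 against 0.83, 0.74 and 0.71. The other pairs among these 5 genes without overlap were mt-Cytb with mt-Nd5 and with mt-Nd6, and mt-Nd2 with mt-Nd5. The ratio of mt-Nd5 to mt-Nd6, neighbours on opposite strands, overlapped at 3.03 ± 0.12 and 3.33 ± 0.45, as did those of mt-Nd1 to mt-Nd5 (1.61 ± 0.24 and 1.65 ± 0.18), mt-Nd1 to mt-Nd6 (4.64 ± 0.36 and 4.99 ± 0.46) and mt-Nd2 to mt-Nd6 (3.49 ± 0.32 and 4.23 ± 0.40). Without rebamipide replicate 3, 37 of the 45 pairs did not overlap, where 51.2% of all pairs did not.

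Per length the order of the genes was nearly the same in both groups. With rebamipide, mt-Co1 was at 72991 ± 16339 FPKM, mt-Cytb at 29896 ± 9487, mt-Nd1 at 16123 ± 3846 and mt-Nd2 at 8836 ± 2397. mt-Nd5 and mt-Nd4, the next in order, were at 2673 ± 575 and 2477 ± 903 and did not differ beyond their spread, as with vehicle at 812 ± 205 and 794 ± 259. mt-Co3 was below mt-Nd6 in every vehicle library and above it in rebamipide replicates 1 and 2, with group means of 1122 ± 311 and 1001 ± 474 FPKM with rebamipide. mt-Co2 (676 ± 429) and mt-Atp6 (389.9 ± 212) had the lowest group means, although in rebamipide replicate 2 mt-Co2 (1094 FPKM) lay above mt-Nd6 (1039 FPKM).

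The nuclear-encoded partners of these proteins moved in the same direction. Of 83 nuclear subunits of complexes I to V, 76 were called higher and 0 lower, where 14.1% of all genes tested were called higher, and their median log2 fold change was 2.23. Without vehicle replicate 2 or rebamipide replicate 2 edgeR called 0 of them, as it did for the mitochondrially encoded genes, and without these libraries DESeq2 called 76 and 76. Without rebamipide replicate 3 edgeR called 73, DESeq2 76 and limma-voom 74. In complex I, 36 of 37 were higher, the exception being Ndufb2 (log2 fold change 0.76, SE 0.32). Ndufb3, an accessory subunit, rose from 111 ± 19.7 to 416 ± 94.0 FPKM. The smallest p-values of the list were those of Ndufs8 (log2 fold change 2.31, SE 0.23) and Ndufs5 (2.19, SE 0.22). All 4 subunits of complex II, which has no mitochondrially encoded subunit, were higher, with Sdha, its flavoprotein, going from 94.8 ± 25.9 to 542 ± 95.6 FPKM and Sdhd, a membrane anchor, from 83.3 ± 20.0 to 466 ± 77.4. Sdhb, the iron-sulfur subunit, had a log2 fold change of 3.04.

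All 9 listed complex III subunits were higher, among them Uqcrh (199 ± 35.1 to 548 ± 88.8 FPKM), Uqcr10 (166 ± 18.8 to 585 ± 54.5) and cytochrome c1, Cyc1 (50.4 ± 6.87 to 273 ± 45.4). In complex IV, 13 of 16 were higher, with Cox6b1 going from 286 ± 33.9 to 1274 ± 250.4 FPKM and Cox4i1 from 179.7 ± 32.8 to 698 ± 124. Cox6a1 had a log2 fold change of 3.23 and Cox8a of 2.66. The complex IV genes not called were Cox4i2 (0.82), Cox6b2 (0.82) and the muscle isoform Cox6a2 (-0.18, SE 1.40). In complex V, 14 of 17 were higher, with the catalytic subunit Atp5b going from 327 ± 15.8 to 1267 ± 182 FPKM, Atp5a1 from 321 ± 26.9 to 1026 ± 95.7, and Atp5d and Atp5o at log2 fold changes of 2.05 and 2.01. Atp5g1 (-0.62, SE 0.80), Atp5g3 (0.33) and Atp5j (0.46) were not called, and without rebamipide replicate 1 edgeR called Atp5g1 lower, with an adjusted p of 0.0383 and a log2 fold change of -2.01. The genes not called were named after their values had been seen.

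Set against these partners, the 10 genes overlapped between the groups in summed FPKM, and in summed counts they did not. Their mean summed FPKM was 4.44 times as high with rebamipide and that of the nuclear subunits of complexes I, III, IV and V was 3.34 times as high. The log2 ratio of both sums was 1.92, 2.37 and 2.50 with vehicle and 2.45, 2.83 and 2.81 with rebamipide. Rebamipide replicate 1 lay below vehicle replicate 3, and the difference of 0.44 was within the range that the libraries covered (exact permutation test, p = 0.2). With counts in place of FPKM the ratio was 1.53, 2.01 and 2.15 against 2.16, 2.48 and 2.51, a difference of 0.49 (exact permutation test, p = 0.1, the smallest that 3 against 3 libraries allow). With FPKM the difference was 0.38 without rebamipide replicate 3, 0.26 without vehicle replicate 1, and 0.37 with only the 5 genes that have little or no nuclear copy (exact permutation test, p = 0.3). It turned to -0.041 when the medians of log2(FPKM + 1) took the place of the sums. Within complex I the ratio was 2.24 ± 0.33 against 2.38 ± 0.25, within complex III 2.52 ± 0.32 against 3.05 ± 0.34, and within complex IV 3.21 ± 0.20 against 3.40 ± 0.14, all with overlap, also without rebamipide replicate 3. Within complex V, where mt-Atp6 stands alone, it was -6.08, -6.30 and -5.24 against -4.58, -3.35 and -2.99, without overlap (exact permutation test, p = 0.1). The difference was 1.91 without rebamipide replicate 3. mt-Atp6 has a nearly whole nuclear copy, and the part of that copy in this ratio was not tested.

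**Figure D4:**
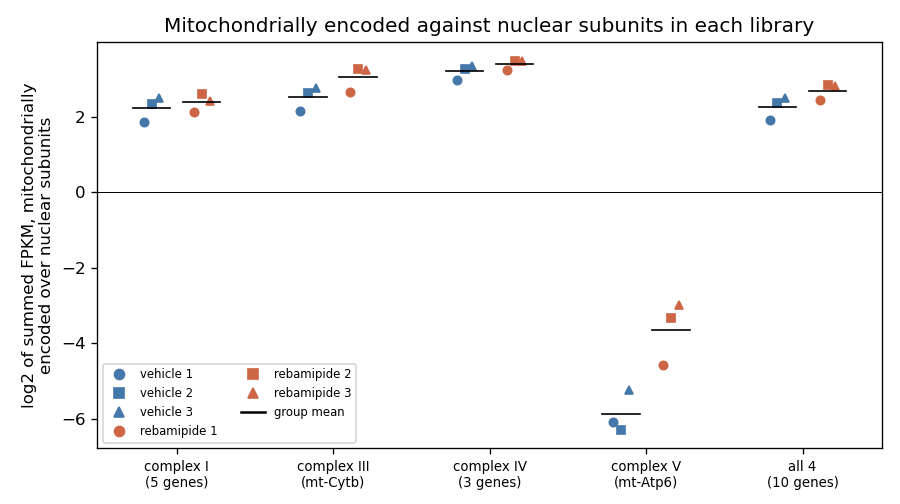
Log2 ratio of summed FPKM of the mitochondrially encoded genes over the nuclear subunits of the same complex, in each of the 6 libraries, with the group mean as a line. The groups overlap for complexes I, III and IV and for all 4 complexes together. Only complex V separates them, and it is represented by mt-Atp6 alone, a gene with a nearly whole nuclear copy.

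Of 36 tested genes that copy and transcribe mitochondrial DNA or process its RNA, 15 were called higher and 0 lower by edgeR, where 14.1% of all genes tested were called higher and 6.51% lower, and their median log2 fold change was 0.91. At an unadjusted p under 0.05, 0 were lower, and DESeq2 and limma-voom also called 0 lower. Of the 17 transcription and replication genes 6 were higher. Tfam, which packages mitochondrial DNA and starts its transcription, was at 9.35, 8.39 and 8.19 FPKM with vehicle and 6.47, 8.78 and 8.26 with rebamipide, and its log2 fold change of 0.51 was not called (adjusted p = 0.168, edgeR). Tfb2m, the second initiation factor, had 1.53 (adjusted p = 0.0524, edgeR). Top1mt, the mitochondrial topoisomerase, rose by 1.68 and Mterf4, a member of the termination factor family, by 1.45 on the log2 scale. Of 19 RNA processing and stability genes 9 were higher, among them Hsd17b10, a subunit of mitochondrial RNase P (48.5 ± 4.14 to 118 ± 28.9 FPKM), Grsf1, an RNA granule protein (34.9 ± 0.577 to 59.0 ± 12.6), and Fastk (10.5 ± 2.23 to 20.9 ± 0.618). edgeR called 7 genes of both lists higher without rebamipide replicate 3, 23 without rebamipide replicate 1, and 0 without vehicle replicate 2 or rebamipide replicate 2.

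The genes outside the mitochondrial chromosome whose log2 normalized CPM followed the log2 sum of the 10 genes most closely were sought among 13365 genes with a mean of at least 50 counts. They were Cox7b, a complex IV subunit (Pearson r = 0.9999 over the 6 libraries), Gne, an enzyme of sialic acid synthesis (0.9995), Grk3, a receptor kinase (0.9994), Bend7 (0.9994) and Gpx4, a lipid peroxide reductase (0.9994). The points share libraries and scaling, and both groups enter, so these values describe the likeness and carry no test. Cox7b was at 77.7, 124 and 154 CPM with vehicle and 443, 723 and 787 with rebamipide, the same order of libraries as the sum of the 10 genes.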

How the data were processed

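RNA-seq libraries of dorsal skin from 3 vehicle-treated and 3 rebamipide-treated mice were analysed, grouped by the labels. The submitters' processing notes name fastp 0.22.0, HISAT2 2.1.0, HTSeq 0.9.1 and the build GRCm39. The authors deposited whole-number read counts without normalization and FPKM values, which equal the counts divided by gene length and by the library's summed counts. All 12 columns of values were matched to samples by name. Within each group, any 2 replicates differed far beyond sampling noise (chi-square divided by its degrees of freedom at least 79.08).

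The quasi-likelihood test of edgeR 4.0.16 (R 4.3.3; TMM factors, filterByExpr) was fitted to the counts, with Benjamini-Hochberg adjustment over all 14875 genes. DESeq2 1.42.0, limma 3.58.1 (voom, and log2(FPKM + 1)), other scalings and filters, a replicate block and each library left out in turn were alternatives. On simulated counts with 200 genes changed 4-fold, edgeR recovered 98% with 12 false calls among 15059 genes. As many genes were raised as lowered, and every gene had the same dispersion. The simulation did not copy the spread between replicates or the number of changed genes of these data, so it does not measure power here. Shares and ratios were tested with two-sided exact permutation tests, which cannot go below 0.1 with 3 against 3 libraries, and ratios of normalized CPM used an offset of 0.5. Sequences are from the transcripts of GENCODE vM21 (GRCm38).

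The members and gene lists were chosen with earlier results of these data known. The text names all 10 members, the other mitochondrial rows, of each list of partners the 2 genes highest in vehicle FPKM and the 2 with the smallest p-values, summed marker lists, and the 5 genes most correlated with the summed members. One gene that this rule selects is not reported here.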

Additional observations from a re-analysis of the deposited data

How the results depend on the processing

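Under the alternatives for the fit, all 290 log2 fold changes of the 10 genes stayed above 0, from 1.43 to 5.09, and 67 no longer passed the adjusted threshold. With total counts alone the median over all genes moved from -0.17 to -0.78, and the 10 genes were at 1.53 to 3.74. The calls rest on few libraries, and the exact tests cannot reach 0.05.

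The count of the 10 genes called higher was 0 to 10 (edgeR), 10 in each case (DESeq2) and 1 to 10 (limma-voom) when a library was left out, and 3 with limma on log2(FPKM + 1) with a variance trend on level. In that fit the standard error of mt-Co1 was 7.18, and without the trend, added after seeing the data, it was 0.32 and 9 genes were called. Single calls were lost for mt-Co1 with total counts alone (adjusted p = 0.0526), upper quartile scaling (0.0686) and at least 10 counts in every library (0.0617). The nuclear subunits called higher ranged without a library from 0 to 77 (edgeR), 76 to 78 (DESeq2) and 36 to 77 (limma-voom, where vehicle and rebamipide replicate 2 gave 36 and 37), and those called lower from 0 to 1, Atp5g1 without rebamipide replicate 1. The genes of mitochondrial DNA expression called higher ranged without a library from 0 to 23 (edgeR), 14 to 29 (DESeq2) and 0 to 22 (limma-voom, 4 without rebamipide replicate 3) and were 7 with the replicate block, and those called lower were 1 with total counts alone (Pde12), 2 with limma on log2(FPKM + 1) (Mterf1a and Mterf1b) and 3 without its trend. Same-numbered libraries of the 2 groups had correlations of -0.073, -0.0282 and -0.0392, and differently numbered ones ran from -0.335 to 0.353. With 3 libraries per group these values showed no pairing by replicate number and cannot exclude one. With the replicate block 10 of the 10 genes were called, with adjusted p from 0.0163 to 0.0329. The share of all genes called in the fit with the replicate block was not counted, so these calls have no background beside them.

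The log2 ratio of the 10 genes to nuclear subunits reversed to -0.0414 with the median of log2(FPKM + 1) in place of sums. The share of mt-Nd2 among the 10 genes differed by -0.332 to 0.0639 percentage points without a library. Apart from the variance trend, the causes of these changes were not tested. The other shares kept their direction without each library and per length.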
